A study of Mus musculus with 23 samples.

Results

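TRBV3 is one of the variable (V) gene segments from which the beta chain of the mouse T cell receptor is assembled. Its clonotypes were taken as every beta chain entry of the deposited table whose V name is V3, a clonotype being 1 combination of V segment, joining (J) segment and amino acid sequence of the third complementarity-determining region (CDR3). There were 3266 TRBV3 clonotypes among 35389 beta chain (TRB) clonotypes, and TRBV3 was 1 of 24 V segments listed. The segment was picked on its share of counts and its large clones with results of these data known, so both are described with no test. In the RefSeq gene table Trbv3 lies between Trbv2 and Trbv4 and carries the older name Tcrb-V16.

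The libraries came from RNA of a syngeneic mouse melanoma model grown from an Nras Q61R line named NIL that had been given ultraviolet radiation to raise its mutation load. That origin is shared by all 8 groups. The 4 treatments were none (control), trametinib, which blocks MEK, BGB-283, which blocks RAF kinases upstream of MEK, and both drugs together (combination), each sampled at 2 times labelled D4 and D11. Control had 3 libraries at D4 and 2 at D11, and every drug group had 3 at each time. The model is 1 tumour line, and the labels give no age, sex or number of mice. Total TRB counts ran from 32534 to 320420 per library. The 2 libraries with the fewest counts were control D4 replicate 1 and control D11 replicate 1, and the control libraries listed 214 to 749 TRB clonotypes against 1074 to 5172 in the combination libraries. Nothing in the labels says that libraries of a group came from separate mice, so a p-value here speaks only of how these libraries vary. In these bulk samples, fewer T cells with a receptor and less receptor RNA per cell cannot be told apart.

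A developing T cell builds its beta chain by joining 1 V, 1 diversity (D) and 1 J segment, with bases trimmed and added at the joints. The joint encodes CDR3, the loop that mostly contacts the peptide held by an MHC molecule, while the V segment encodes the other loops and the first residues of CDR3. T cells that share a receptor descend from 1 cell or arose by the same joint being made independently, and a large clonotype in a tumour sample is usually a T cell that has divided there or before it arrived. J segments lie in a first cluster (TRBJ1) and a second cluster (TRBJ2) behind their own D and constant segments.

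The CDR3 sequences below carry the results that follow. They are read as amino acids from the first to the last residue of the deposited entry. The first pair is shown because 1 of them was the largest TRBV3 clonotype and the only one large in several libraries, and because they differ by L5S (position 5 counted from the first residue), the second sequence named being the one with S.
TRBV3 TRBJ2-7, large in BGB-283 D11 replicate 2: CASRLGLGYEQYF
TRBV3 TRBJ2-7, large in 3 libraries: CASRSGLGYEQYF
The next 4, all with TRBJ1-4, are shown because they were large in 4 different libraries and are near copies of each other. Against the first, the second differs by D6G, the third by L5P and the fourth by L5Q.
TRBV3 TRBJ1-4, trametinib D4 replicate 2: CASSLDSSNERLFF
TRBV3 TRBJ1-4, control D4 replicate 2: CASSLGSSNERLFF
TRBV3 TRBJ1-4, BGB-283 D11 replicate 3: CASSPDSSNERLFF
TRBV3 TRBJ1-4, control D4 replicate 1: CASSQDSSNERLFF
Of the others, 4 are shown as TRBJ2-5 clonotypes of similar form, large in trametinib and combination libraries, and 1 as the clonotype listed in the most libraries.
TRBV3 TRBJ2-5, trametinib D4 replicate 1: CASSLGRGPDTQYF
TRBV3 TRBJ2-5, trametinib D4 replicate 3: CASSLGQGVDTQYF
TRBV3 TRBJ2-5, trametinib D4 replicate 2: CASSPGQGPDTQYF
TRBV3 TRBJ2-5, combination D11 replicate 2: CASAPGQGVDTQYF
TRBV3 TRBJ2-5, listed in 6 libraries: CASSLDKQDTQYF

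TRBV3 took the second highest mean share of TRB counts of the 24 segments, at 11.6% ± 7.57 (SD, n = 23 libraries). TRBV16 was above it at 20.1% ± 12.3 and TRBV19 just below at 11.03% ± 8.65. TRBV3 and TRBV19 did not differ beyond their spread, TRBV3 having the higher share in 14 of 23 libraries. TRBV3 was above TRBV16 in 5 of 23 libraries. By number of clonotypes TRBV3 was the fourth, with 9.69% ± 1.43, behind TRBV16 (15.5% ± 2.34), TRBV29 (13.1% ± 2.56) and TRBV19 (11.4% ± 2.44). The 3 segments whose clonotype share followed that of TRBV3 most closely over the 23 libraries were TRBV16 (Spearman correlation 0.58), TRBV20 (0.18) and TRBV2 (0.14), a description over shares of 1 total that share library and depth.

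The share of TRB counts held by TRBV3 differed more between libraries of 1 group than between groups. In control D4 it was 7.52%, 24.9% and 8.51%, and in control D11 it was 11.01% and 6.02%. In trametinib D4 it was 20.4%, 11.4% and 13.5%, and in trametinib D11 it was 7.13%, 11.8% and 7.70%. In BGB-283 D4 it was 7.93%, 3.58% and 22.4%, and in BGB-283 D11 it was 3.39%, 7.86% and 10.1%. A single library stood high in control D4 and in BGB-283 D4. In combination D4 it was 5.76%, 7.02% and 13.1%, and in combination D11 it was 9.87%, 35.5% and 10.9%. The 4 treatments overlapped, with means of 11.6% ± 7.68 (control, n = 5), 11.997% ± 4.80 (trametinib, n = 6), 9.20% ± 6.97 (BGB-283, n = 6) and 13.7% ± 10.99 (combination, n = 6).

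**Figure D1:**
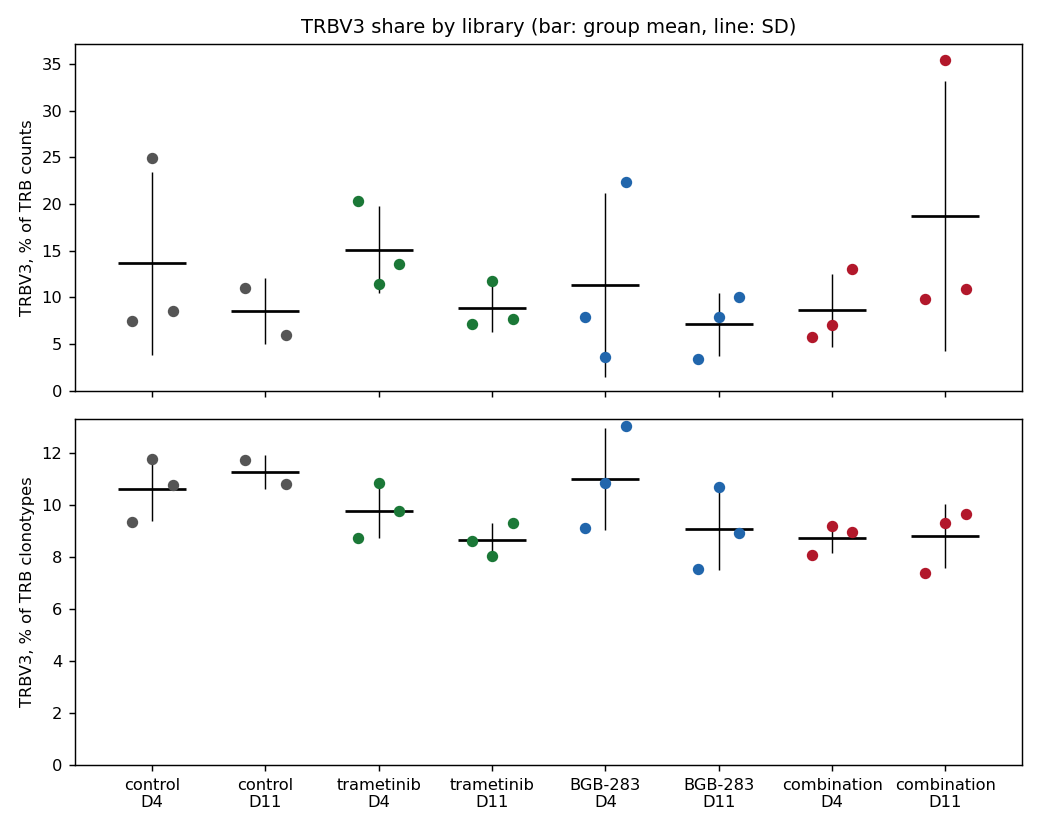
TRBV3 as a percent of TRB counts (upper) and of TRB clonotypes (lower) in each library of the 8 groups, each point 1 library, the bar the group mean and the line its SD. Counts range from 3.39% to 35.5% with single high libraries in control D4, BGB-283 D4 and combination D11, while the clonotype share stays between 7.40% and 13.1%.

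Large TRBV3 clonotypes made up most of the count share in the 4 libraries above 20%, where they held 14.5% to 29.95% of TRB counts. Large ones were also present in low libraries, such as combination D4 replicate 1 at 5.76%. Without clonotypes of 1% or more of TRB counts, TRBV3 held 2.52% to 8.21% of all TRB counts. It then held 9.26% ± 1.82 (n = 23) of the counts that remained when large clonotypes of every segment were taken out, close to its 9.69% share of clonotypes. For combination D11 replicate 2 the TRBV3 share was 35.5% with large clonotypes and 5.50% without. For trametinib D11, 2 of 3 libraries had no large TRBV3 clonotype, and the smaller ones held 7.13%, 8.21% and 7.70% of counts, while the control libraries gave 2.52% to 5.07%. Of the counts left when large clonotypes of every segment were taken out, TRBV3 held 9.33% to 10.3% in trametinib D11 and 6.83% to 12.8% in control, so the ranges then overlapped.

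The number of TRBV3 clonotypes followed the total of each library. TRBV3 gave 20, 49 and 75 of 214, 416 and 696 TRB clonotypes in control D4, and 35 and 81 of 298 and 749 in control D11. In combination D4 it gave 290, 476 and 333 of 3584, 5172 and 3718, and in combination D11 167, 404 and 104 of 2256, 4328 and 1074. Trametinib libraries had 64 to 189 TRBV3 clonotypes and BGB-283 libraries 33 to 172. As a share of TRB clonotypes, TRBV3 gave 9.35%, 11.8% and 10.8% in control D4, 11.7% and 10.8% in control D11, 8.09%, 9.20% and 8.96% in combination D4, and 7.40%, 9.34% and 9.68% in combination D11. In 5 of 6 combination libraries it lay below the lowest control value.

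Whether treatment altered the part of the repertoire built on TRBV3 was tested on clonotype numbers with edgeR's quasi-likelihood test over the 20 segments with enough clonotypes, with Benjamini-Hochberg adjustment over those segments. No contrast passed an adjusted p of 0.05 for TRBV3. The lowest was combination against control, 8.78% ± 0.861 (n = 6) against 10.9% ± 0.990 (n = 5), a log2 difference of -0.33 (SE 0.13, edgeR adjusted p = 0.0728), in a comparison that called 3 of 20 segments (15%), with a median log2 difference over segments of 0.14. Trametinib against control gave 9.23% ± 0.994 and -0.24 (SE 0.13, edgeR adjusted p = 0.184), with 0% of segments called at an adjusted p and 6 of 20 at an unadjusted one under 0.05. BGB-283 against control gave 10.04% ± 1.92 and -0.11 (SE 0.13, edgeR adjusted p = 0.664), with 15% called. Combination differed from trametinib by -0.08 (SE 0.10, edgeR adjusted p = 0.661, 0% called) and from BGB-283 by -0.21 (SE 0.11, edgeR adjusted p = 0.125, 5% called). D11 against D4 gave -0.10 (SE 0.08, edgeR adjusted p = 0.795, 0% called). The combination value passed when clonotypes under 20 counts were removed, at -0.62, and when library totals were scaled by TMM factors, at -0.36. With counts in place of clonotypes the sign turned, to 0.24, and that value includes the large clones.

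CDR3 loops of TRBV3 clonotypes were shorter on average in the treated libraries than in control. Each clonotype was counted once, whatever its size, though entries 1 residue from a large clone share its length and were counted too. The mean length was 14.20, 14.18 and 14.19 residues in control D4 and 14.40 and 14.36 in control D11. It was 13.92, 13.96 and 14.17 in trametinib D4, and 14.17, 14.23 and 14.11 in trametinib D11. It was 13.93, 13.97 and 13.81 in BGB-283 D4, and 14.18, 14.03 and 14.20 in BGB-283 D11. In the combination it was 14.06, 14.07 and 13.96 at D4 and 13.99, 13.95 and 13.80 at D11. The combination had the lowest mean at D11 and over both times. At D4 its mean of 14.03 lay above 14.01 with trametinib and 13.90 with BGB-283. All 6 combination libraries, and 5 of 6 with each single drug, lay below the lowest control library.

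Averaged over both times, CDR3 length fell by 0.192 residues with trametinib (14.09 ± 0.125, n = 6, against 14.27 ± 0.105, n = 5). It fell by 0.263 with BGB-283 (14.02 ± 0.149, n = 6) and fell by 0.312 with the combination (13.97 ± 0.0990, n = 6). Each had p = 0.005 in a two-sided exact permutation test within times, the smallest that 200 arrangements allow, and adjusted p = 0.01 over 6 contrasts. Within a single time, 3 libraries against 3 cannot reach a p under 0.1. The same test on every segment with enough clonotypes in the groups compared gave p under 0.05 in 7.69% of 13 segments for trametinib, 8.33% of 12 for BGB-283 and 23.1% of 13 for the combination, and TRBV3 had the second most negative difference in each. Adjusted over those segments, the exact permutation p for TRBV3 was 0.065, 0.06 and 0.065, so none passed on that scale. Satellites, clonotypes 1 residue from one of at least 20 times their counts with the same V and J, made up 18.2% ± 13.9 of TRBV3 clonotypes in control, 8.18% ± 3.57 with trametinib, 8.30% ± 7.65 with BGB-283 and 10.9% ± 5.49 with the combination. They reached 40.8% in control D4 replicate 2 (20 of 49). With satellites left out the differences were smaller, at -0.186 for BGB-283 and -0.238 for the combination (adjusted p = 0.015 each, exact permutation test), and trametinib stood at the threshold without passing it (-0.177, adjusted p = 0.05, exact permutation test). Without control D4 replicate 1 and control D11 replicate 1, the shallowest libraries with 20 and 35 TRBV3 clonotypes, differences were -0.179, -0.250 and -0.299 and the adjusted exact permutation p was 0.0729 to 0.075. That test has 40 arrangements and a smallest unadjusted p of 0.025, so the missed threshold says little.

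Over both times together, the other TRBV clonotypes of the same libraries had no such difference. Their mean length was 13.93 ± 0.183 residues in control, 13.97 ± 0.0952 with trametinib, 13.95 ± 0.0472 with BGB-283 and 13.95 ± 0.0765 with the combination (adjusted p = 0.97 for each contrast, exact permutation test). TRBV3 minus the other segments in the same library was 0.335 ± 0.101 residues in control (n = 5), 0.118 ± 0.147 with trametinib, 0.0702 ± 0.181 with BGB-283 and 0.0191 ± 0.0660 with the combination (n = 6 each). That within-library difference fell by 0.205 with trametinib (adjusted p = 0.045, exact permutation test) and by 0.304 with the combination (adjusted p = 0.03, exact permutation test). With BGB-283 the difference was -0.253 (adjusted p = 0.08, exact permutation test). This comparison was added after the lengths were seen.

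**Figure D2:**
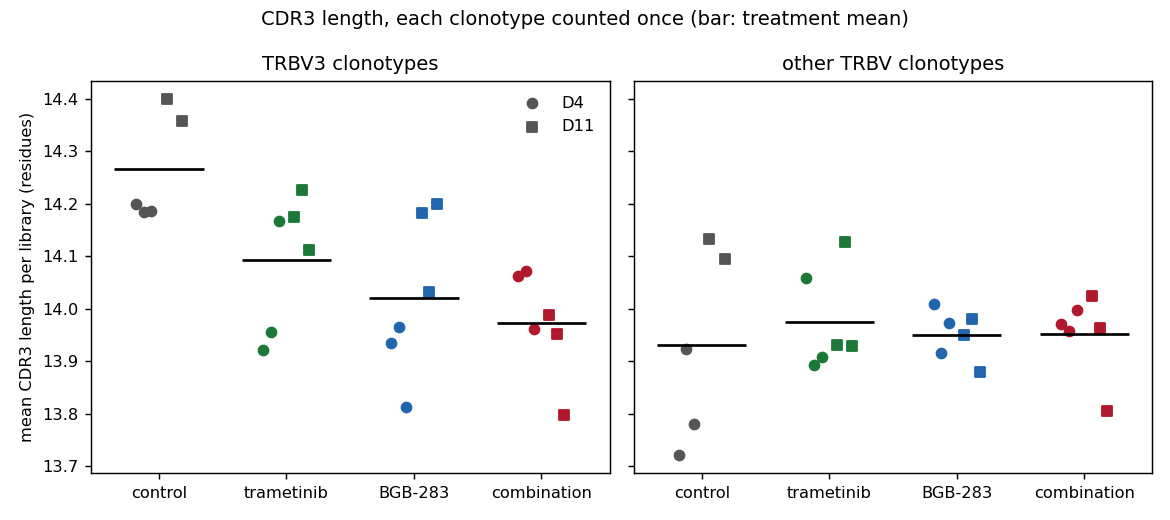
Mean CDR3 length in residues of TRBV3 clonotypes (left) and of all other TRBV clonotypes (right), each point 1 library, circles D4 and squares D11, with the mean of each treatment as a bar. Over both times together, TRBV3 means go from 14.27 in control to 13.97 in the combination, while means of the other segments lie between 13.93 and 13.97 in every treatment. In the other segments the control mean is the lowest at D4 and the highest at D11.

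The combination did not pass against either single drug. Combination against trametinib differed by -0.121 residues (adjusted p = 0.132, exact permutation test, 5.26% of 19 segments at p under 0.05) and combination against BGB-283 by -0.0491 (adjusted p = 0.545, exact permutation test, 0% of 16 segments). At D4 the combination lay 0.127 above BGB-283 and at D11 it lay 0.225 below it (difference between times -0.225 against 0.127, adjusted p = 0.05 over 5 contrasts, exact permutation test, not under the threshold). D11 exceeded D4 by 0.115 residues as an average over the 4 treatments (14.13 ± 0.178, n = 11, against 14.04 ± 0.128, n = 12, adjusted p = 0.0316, permutation test), with 16.7% of 12 segments at p under 0.05. As TRBV3 minus the other segments of the same library the difference was 0.0463 (adjusted p = 0.489, permutation test), the other segments being 0.0687 longer at D11 (adjusted p = 0.97, permutation test). TRBV3 length at D11 against D4 was 14.38 against 14.19 in control, 14.17 against 14.01 with trametinib and 14.14 against 13.90 with BGB-283. With the combination it went the other way, 13.91 against 14.03. The unpaired call was lost without any 1 of 6 libraries: trametinib D4 replicate 1, trametinib D11 replicate 2, BGB-283 D4 replicate 3, combination D4 replicate 3, combination D11 replicate 1 and combination D11 replicate 2 (0.103 to 0.110 residues).

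Within libraries, TRBV3 clonotypes had longer CDR3 loops than other TRBV clonotypes, 14.08 ± 0.158 against 13.95 ± 0.101 residues (n = 23). TRBV3 was longer in 16 of 23 libraries, by 0.127 on average (p = 0.00177, two-sided permutation test of paired differences). This and the other comparisons within libraries were run for TRBV3 only, so how other V segments differ from the rest is not known. The excess was not the same in each treatment. It was 0.335 in control (longer in 5 of 5), 0.118 with trametinib (5 of 6) and 0.0702 with BGB-283 (4 of 6). With the combination it was 0.0191, and TRBV3 was shorter in 4 of 6 libraries. Of TRBV3 clonotypes 34.2% had 14 residues against 29.3% of the others, and 24.6% had 15 against 21.5%. At 12 residues TRBV3 had 7.01% against 9.94%. In the first residues, which the V segment encodes, 90.5% of TRBV3 clonotypes began with CASS against 72.6% of the others, and 38.5% with CASSL against 21.4%.

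TRBJ2-7 was the most frequent J partner of TRBV3, with 727 of 3266 clonotypes (22.3%), followed by TRBJ2-5 (14.02%) and TRBJ2-1 (12.4%). The rarest were TRBJ1-6 (0.949%), TRBJ1-5 (2.17%) and TRBJ1-3 (4.04%). By counts summed over libraries, TRBJ2-7 held 32.3% and TRBJ2-5 30.9% of TRBV3. The 2 leading partners thus held more of the counts than of the clonotypes, and TRBJ2-1 less, at 5.24%.

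Set against the other TRBV clonotypes of the same library, TRBV3 used 4 of 12 J segments (33.3%) at a different rate after Benjamini-Hochberg adjustment, each one lower. No other V segment was compared in this way, so these rates are not shown to be particular to TRBV3. TRBJ1-6 made up 1.02% ± 0.997 of TRBV3 clonotypes against 3.11% ± 0.675 of the others and was lower in 22 of 23 libraries (adjusted p = 0.00012, permutation test, from the smallest p that 100000 resamples can give). TRBJ2-1 made up 11.6% ± 2.89 against 14.5% ± 1.75, lower in 18 of 23 (adjusted p = 0.0018, permutation test). By treatment the TRBJ2-1 difference was -6.34 points in control (lower in 5 of 5), -2.96 with trametinib and -1.93 with BGB-283 (lower in 5 of 6 each). With the combination it was -1.07 (lower in 3 of 6). TRBJ1-1 made up 6.87% ± 3.26 against 9.33% ± 1.24, lower in 19 of 23 (adjusted p = 0.00812, permutation test). Its difference was -6.08 points in control (lower in 5 of 5) and 0.622 with trametinib (9.57% against 8.95%, lower in 3 of 6), and the treatments were not tested against each other. TRBJ2-2 made up 4.10% ± 2.04 against 5.28% ± 1.01, lower in 17 of 23 (adjusted p = 0.0271, permutation test). Only TRBJ1-6 passed in the D11 libraries alone. TRBJ2-7, at 22.6% ± 7.45 against 19.9% ± 1.70, and TRBJ2-5, at 13.99% ± 7.18 against 11.6% ± 1.57, did not pass (adjusted p = 0.197 and 0.232, permutation test).

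**Figure D3:**
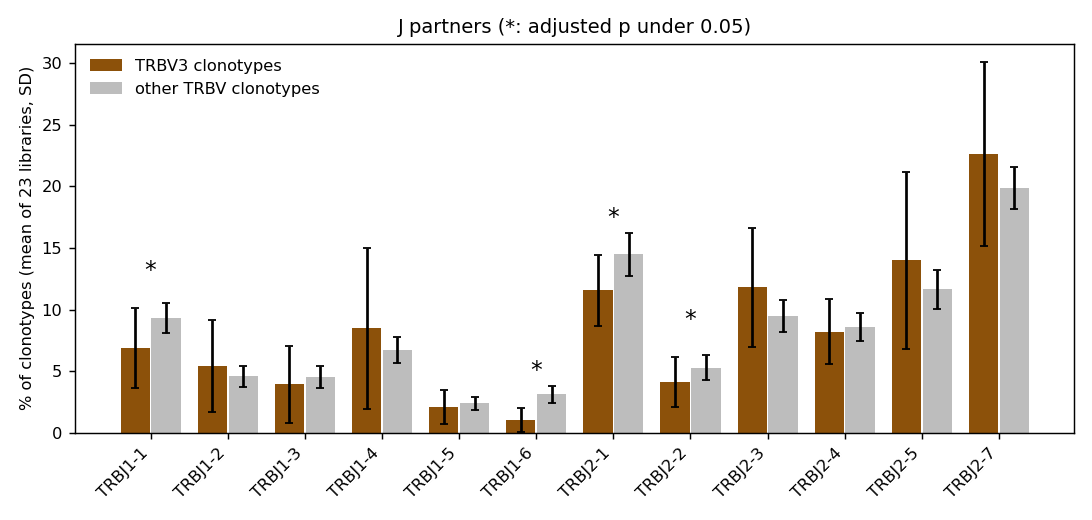
Share of each J segment among TRBV3 clonotypes and among other TRBV clonotypes, as the mean of 23 libraries with SD, each clonotype counted once; stars mark an adjusted p under 0.05. TRBJ1-1, TRBJ1-6, TRBJ2-1 and TRBJ2-2 carry a star and are all lower in TRBV3, and the spread is wider for TRBV3, which has fewer clonotypes in each library.

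The balance between both J clusters did not pass a test in any contrast. TRBJ2 segments made up 68.0% ± 10.99 of TRBV3 clonotypes in control (n = 5), 72.4% ± 5.68 with trametinib, 72.4% ± 9.21 with BGB-283 and 75.5% ± 1.67 with the combination (n = 6 each). The lowest adjusted p was 0.63, for combination against control (6.34 percentage points, exact permutation test). It was 3.00 points without control D4 replicate 1, 9.17 without control D4 replicate 3 and 1.85 without satellites. Control D4 replicate 1, with 20 TRBV3 clonotypes, had the lowest value at 50.0%, and BGB-283 D11 replicate 1, with 33, the next at 54.5%. Within libraries the TRBJ2 share was 72.3% ± 7.50 for TRBV3 and 69.3% ± 1.60 for the others, higher in 16 of 23 (p = 0.0755, permutation test). Without both shallowest libraries the excess of 2.93 points became 3.66 and passed.

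Large clonotypes, those of 1% or more of a library's TRB counts, numbered 33 in TRBV3 and occurred as 35 pairs of clonotype and library. They were 1.01% of TRBV3 clonotypes, and 0.694% of the other TRBV clonotypes were large. Several segments had a higher share than TRBV3, among them TRBV16 (1.07%) and TRBV2 (1.74%). They were found in 19 of 23 libraries, the exceptions being trametinib D11 replicates 1 and 3, BGB-283 D4 replicate 2 and BGB-283 D11 replicate 1. Control had 11 of the 35 pairs in its 5 libraries, and trametinib 6, BGB-283 8 and the combination 10 in 6 libraries each. Control libraries listed 214 to 749 TRB clonotypes and combination libraries 1074 to 5172. Large clonotypes of all segments were not split by treatment, so these numbers show no difference between treatments particular to TRBV3. A TRBV3 clonotype was the largest TRB clonotype of its library in 3 cases and ranked 2 or 3 in 7 cases. The 95% Wilson intervals of the 35 shares were at most 0.471 percentage points wide and cover counting error only, since several counts can come from 1 molecule.

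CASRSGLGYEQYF was the largest, with 21.6% of TRB counts in combination D11 replicate 2 (69317 of 320420 counts, Wilson interval 21.5% to 21.8%). It also had 12.99% in BGB-283 D4 replicate 3 and 4.51% in combination D11 replicate 1, and it was listed at 0 in the other 20 libraries. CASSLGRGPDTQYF followed with 14.5% in trametinib D4 replicate 1, where it was the largest TRB clonotype and held 71.0% of TRBV3 counts. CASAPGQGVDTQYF reached 8.32% in combination D11 replicate 2 and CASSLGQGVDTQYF 7.002% in trametinib D4 replicate 3. Each of these 4 clonotypes was the largest or next largest of its library's TRBV3 clonotypes.

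Control libraries had large TRBV3 clonotypes as well. Control D4 replicate 2 had 4, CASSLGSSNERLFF at 9.09%, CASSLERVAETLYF (TRBJ2-3) at 7.74%, a 15-residue TRBJ2-3 clonotype at 2.73% and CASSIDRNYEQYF (TRBJ2-7) at 1.69%. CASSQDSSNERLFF had 5.001% in control D4 replicate 1. Control D4 replicate 3 had a 15-residue TRBJ2-5 clonotype at 2.48% and a 16-residue TRBJ1-4 clonotype at 1.49%. Control D11 replicate 1 had a 15-residue TRBJ2-5 clonotype at 3.53%, a 16-residue TRBJ2-3 clonotype at 1.35% and a 14-residue TRBJ2-2 clonotype at 1.06%, and control D11 replicate 2 a 15-residue TRBJ1-4 clonotype at 1.73%.

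Single-drug libraries held smaller ones besides those named. In trametinib D4 replicate 2 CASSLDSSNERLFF had 5.31% and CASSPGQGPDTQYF 1.27%, in trametinib D4 replicate 3 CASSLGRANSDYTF (TRBJ1-2) had 1.04%, and in trametinib D11 replicate 2 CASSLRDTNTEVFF (TRBJ1-1) had 3.60%. In BGB-283 D4, replicate 3 had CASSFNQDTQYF (TRBJ2-5) at 3.70%, and replicate 1 had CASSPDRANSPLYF (TRBJ1-6) at 2.14% and a 15-residue TRBJ1-4 clonotype at 1.11%. In BGB-283 D11, replicate 3 had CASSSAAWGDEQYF (TRBJ2-7) at 4.62%, a 15-residue TRBJ2-1 clonotype at 1.63% and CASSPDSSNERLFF at 1.21%, and replicate 2 had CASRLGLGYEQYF at 1.34%. No large TRBV3 clonotype of a trametinib library was large in any other library.

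In the combination libraries the other large clonotypes lay between 1.52% and 4.84%. Combination D11 replicate 3 had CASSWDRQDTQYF (TRBJ2-5) at 4.84% and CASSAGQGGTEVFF (TRBJ1-1) at 3.47%. Combination D4 replicate 3 had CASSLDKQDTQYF at 4.09% and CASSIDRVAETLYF (TRBJ2-3) at 3.78%. Combination D4 replicate 1 had a 15-residue TRBJ2-5 clonotype at 2.78%, and replicate 2 had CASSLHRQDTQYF (TRBJ2-5) at 1.85% and a 15-residue TRBJ2-1 clonotype at 1.52%. In combination D4 no TRBV3 clonotype passed 5%, and in combination D11 2 did, both in replicate 2.

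**Figure D4:**
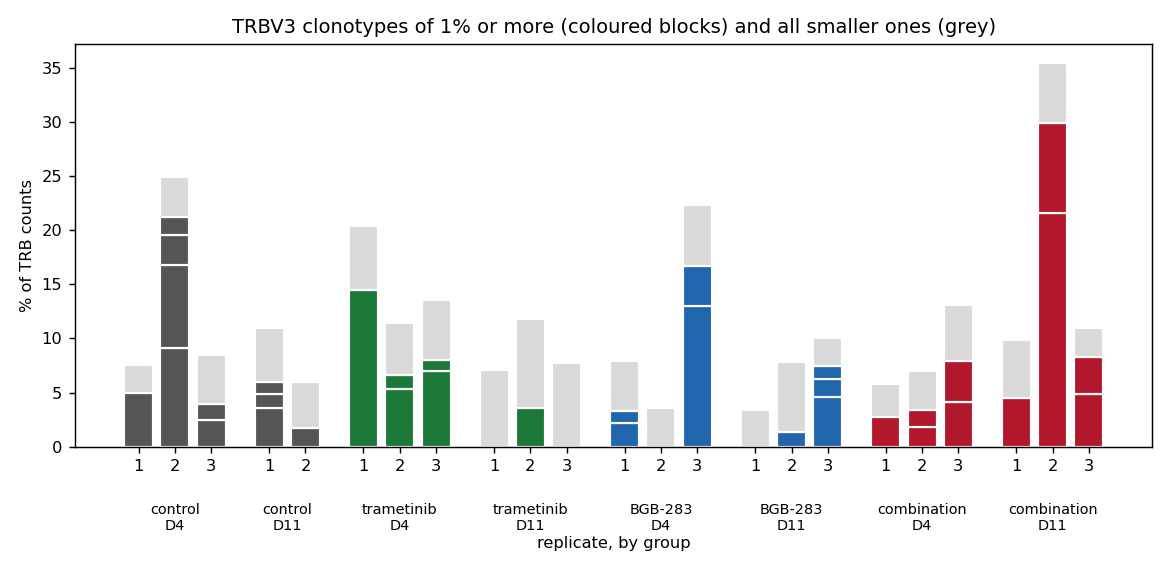
TRBV3 clonotypes of 1% or more of TRB counts (coloured blocks, 1 block a clonotype) and all smaller TRBV3 clonotypes together (grey), as a percent of TRB counts, for each replicate of the 8 groups. The grey part lies between 2.52% and 8.21% in every library, and combination D11 replicate 2, with blocks of 21.6% and 8.32%, is the highest.

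Close to the threshold, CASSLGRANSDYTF at 1.04%, a 14-residue TRBJ2-2 clonotype at 1.06% and a 15-residue TRBJ1-4 clonotype at 1.11% lay just inside. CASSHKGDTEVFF (TRBJ1-1) at 0.967% in trametinib D4 replicate 1, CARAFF (TRBJ1-1) at 0.931% in combination D4 replicate 3 and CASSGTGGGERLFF (TRBJ1-4) at 0.895% in control D4 replicate 3 lay just outside. With a threshold of 0.5% there were 59 large clonotypes and with 2% there were 20.

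TRBJ2-5 and TRBJ1-4 were common among the large TRBV3 clonotypes. TRBJ2-5 was the partner of 11 of 33 and TRBJ1-4 of 7 of 33 (21.2%), while they were the partners of 14.02% and 6.80% of all TRBV3 clonotypes. Among large clonotypes of other segments TRBJ2-5 was the partner of 49 of 223 (22.0%) and TRBJ1-4 of 20 of 223 (8.97%). Large TRBV3 clonotypes had a median of 14 residues (12 to 16), as had all TRBV3 clonotypes (6 to 19). Ending QDTQYF was carried by 7 of 33 large clonotypes, in 7 libraries, and by 6.77% of all, and ending SNERLFF by 6 of 33, in 6 libraries, and by 3.12% of all. These endings were picked after the sequences were seen. In the large clonotypes QDTQYF always came with TRBJ2-5 and SNERLFF with TRBJ1-4, so the endings in part repeat the J partners above. Among all TRBV3 clonotypes 221 ended in QDTQYF and 458 had TRBJ2-5, while 102 ended in SNERLFF and 222 had TRBJ1-4.

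Near copies of large TRBV3 clonotypes recurred in separate libraries. Only pairs whose members were largest in different libraries were counted. Of 25 such pairs of large TRBV3 clonotypes with the same J and length, 8 (32.0%) differed at 1 residue, and 11 of the 33 clonotypes were in one of those 8. Among the large clonotypes of the other segments, 23 of 113 such pairs within a segment (20.4%) did so. That pool holds 55 pairs of TRBV16, of which 4 did (7.27%), while TRBV19 had 6 of 19 (31.6%) and TRBV2 2 of 6 (33.3%), about as in TRBV3. The 4 TRBJ1-4 sequences printed above gave 4 of the 8, and the TRBJ2-7 pair with L5S gave 1. The remaining 3 were pairs of 15 residues, 1 with TRBJ2-1 (F5R) and 2 with TRBJ2-5 (R5S and A9G). Control libraries were in 5 of the 8 pairs. The 4 TRBJ2-5 sequences of 14 residues differed at 2 positions in several pairings, among them R7Q and P9V between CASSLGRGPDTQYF and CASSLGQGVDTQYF.

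Clonotypes ending in GLGYEQYF formed a group of 26 TRBV3 clonotypes, all with TRBJ2-7. They held 21.8% of TRB counts in combination D11 replicate 2 (17 clonotypes), 13.3% in BGB-283 D4 replicate 3 (12), 4.57% in combination D11 replicate 1 (7) and 1.34% in BGB-283 D11 replicate 2 (2). Trametinib D11 replicate 3 had 0.0907%, combination D4 replicates 1 and 2 had 0.0153% and 0.00292%, and the other 16 libraries, all 5 controls among them, had none listed. Without the group the TRBV3 share of counts was 13.6% in combination D11 replicate 2 and 9.12% in BGB-283 D4 replicate 3. The ending also occurred in 26 clonotypes of other V segments, none above 0.184% of TRB counts. Of the 26 TRBV3 clonotypes, 18 had the length of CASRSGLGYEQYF and differed from it at 1 residue. Satellites as defined above made up 18.8% of TRBV3 clonotypes in combination D11 replicate 2 and 19.8% in BGB-283 D4 replicate 3, against a median of 8.64% over the 23 libraries. Within the group, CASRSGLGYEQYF had 69317 counts in combination D11 replicate 2 and the next member, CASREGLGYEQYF, had 310. In BGB-283 D4 replicate 3 it had 21975 and the next member, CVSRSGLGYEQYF, had 241. The members 1 residue from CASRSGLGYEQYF were thus satellites by that definition in both libraries. Whether they are separate receptors was not tested.

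The alpha chains of the same libraries were searched for clonotypes with the same distribution. Of 29047 alpha chain (TRA) clonotypes, 1 was listed in exactly the 4 libraries in which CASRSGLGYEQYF or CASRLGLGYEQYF was large, and 6 were listed in all 4. That clonotype is printed here because of this match.
TRAV4N-3 TRAJ12: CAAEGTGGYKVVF
It held 8.54% of TRA counts in combination D11 replicate 2, 3.08% in BGB-283 D4 replicate 3, 1.78% in combination D11 replicate 1 and 0.711% in BGB-283 D11 replicate 2. The order of the 4 libraries was the order of their share of GLGYEQYF clonotypes. It was picked for being listed in exactly these 4 libraries, so its 0 in all control and trametinib libraries was set by that rule. Bulk libraries do not measure which chains share a cell. Of the 20 largest TRB clonotypes of each of the 3 libraries with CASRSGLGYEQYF, 1 to 5 were listed in another of the 3, that clonotype included.

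**Figure D5:**
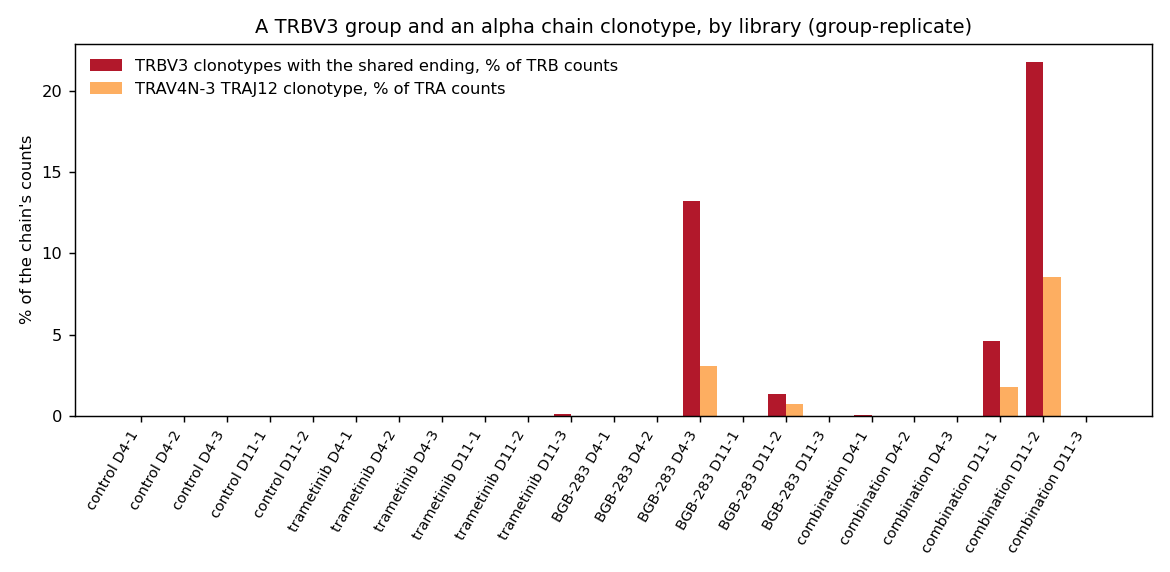
Share of TRB counts held by TRBV3 clonotypes of the GLGYEQYF group and share of TRA counts held by the TRAV4N-3 TRAJ12 clonotype, for each of the 23 libraries. Both are visible in the same 4 libraries, from 1.34% and 0.711% in BGB-283 D11 replicate 2 to 21.8% and 8.54% in combination D11 replicate 2. The alpha chain clonotype was picked for being listed in exactly those libraries.

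Sharing between libraries was limited. Of the 3266 TRBV3 clonotypes, 166 (5.08%) were listed in 2 or more libraries, and 3.69% of the other TRBV clonotypes were. Within a library, 11.3% ± 3.94 of TRBV3 clonotypes were also listed in another library against 9.29% ± 1.96 of the other TRBV clonotypes, a difference of 1.96 points and higher in 16 of 23 libraries (p = 0.0238, permutation test). A shared clonotype counts in every library that lists it, so the 23 differences are not independent, as the test takes them to be. That p is therefore only a rough guide. By treatment the difference was 2.16 ± 3.11 points in control, -0.607 ± 3.69 with trametinib, 1.499 ± 4.36 with BGB-283 and 4.82 ± 2.70 with the combination. Of the 166 shared clonotypes, 19 were 1 residue from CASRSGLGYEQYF. The call was lost without clonotypes under 20 counts (2.00 points), without both shallowest libraries (1.73), and in the D4 (1.83) or D11 (2.10) libraries alone.

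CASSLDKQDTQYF was the most widely listed TRBV3 clonotype, in 6 libraries and in all 4 treatments. It had 4.09% of TRB counts in combination D4 replicate 3, 0.577% in BGB-283 D11 replicate 2, 0.544% in control D4 replicate 3, 0.441% in trametinib D4 replicate 1, 0.217% in trametinib D11 replicate 1 and 0.108% in BGB-283 D4 replicate 3. No TRA clonotype was listed in all 6. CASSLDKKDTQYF (TRBJ2-5) was listed in 5 libraries, at 0.0145% to 0.0744%.

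A further 7 clonotypes were listed in 4 libraries. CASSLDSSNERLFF, large in trametinib D4 replicate 2, had 0.430% in BGB-283 D11 replicate 3, 0.213% in control D4 replicate 3 and 0.0671% in BGB-283 D11 replicate 1. The other 6 stayed under 0.1% throughout. They were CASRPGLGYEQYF, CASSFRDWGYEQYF and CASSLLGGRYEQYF with TRBJ2-7, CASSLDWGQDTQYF and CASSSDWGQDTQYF with TRBJ2-5, and a 15-residue TRBJ1-4 clonotype. The largest overlap between a pair of libraries was 20 TRBV3 clonotypes, between BGB-283 D4 replicate 3 (11.6% of its TRBV3 clonotypes) and combination D11 replicate 2 (4.95%). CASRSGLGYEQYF had its largest shares in this pair. It was among the 20, with entries 1 residue from it such as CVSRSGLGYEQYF, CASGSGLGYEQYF and RASRSGLGYEQYF. The 20 therefore need not be separate receptors. Pairs of libraries from the same group shared 1.77 TRBV3 clonotypes on average (22 pairs) and pairs from different groups 0.991 (231 pairs).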

How the data were processed

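The members and lists were chosen with earlier results of these data known. RNA of 23 libraries was made into T cell receptor libraries with the QIAseq Immune Repertoire RNA kit, per the labels' protocols. The deposited table gives whole-number counts per receptor entry and library, from 3 upwards. The aligner or caller behind them is not given in the sources used here, and the submitters' processing notes name the human build GRCh38 for these mouse samples, so no coordinates are given. V and J names were matched to RefSeq symbols (24 of 24 TRBV, 12 of 12 TRBJ). TRB entries with an unresolved residue (182, 0.0421% of TRB counts) were left out.

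Clonotype numbers per segment were tested with edgeR 4.0.16 (R 4.3.3, filterByExpr, 8 group means, TRB clonotypes as library size), with DESeq2 1.42.0 as an alternative. Mean CDR3 length and TRBJ2 share used exact permutation within times, or of times within treatments, and comparisons within libraries used 100000 sign permutations (Python 3.11.15, numpy 2.4.6, pandas 2.3.3), with Benjamini-Hochberg adjustment and a threshold of 0.05. The tests were tried on simulated data. Estimated molecules are counts divided by 20 and rounded up, an assumption drawn from the values. A satellite is a clonotype 1 residue from one of at least 20 times its counts with the same V, J and library. No pairing by replicate number was seen: every correlation was over 0.1 in 2 of 28 pairs of groups (range -0.573 to 0.567). With only 2 or 3 replicate numbers in each pair of groups, this cannot show that no block exists.

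Named clonotypes are all of 1% or more, those in 4 or more libraries and those next to the 1% threshold, besides a TRA clonotype and CDR3 endings picked after their values were seen. Named segments are the neighbours of TRBV3 by share and the 3 closest by Spearman correlation. Named TRBJ are those that passed, with the 3 highest and 3 lowest, and partners of the large clonotypes. CDR3s over 14 residues are given by J and length.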

Additional observations from a re-analysis of the deposited data

Results flagged for a closer look

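The alpha chain clonotype TRAV4N-3 TRAJ12 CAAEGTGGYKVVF lies outside the beta chain measurement and was listed at 0 in all 5 control libraries. That 0 was set by the search, which picked it for being listed only in the libraries named next. It had 3.08% of TRA counts in BGB-283 D4 replicate 3, 0.711% in BGB-283 D11 replicate 2, 1.78% in the first combination D11 library (replicate 1) and 8.54% in replicate 2 of that group. The table lists no count under 3, so a lower number of copies in the controls would not be seen.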

How the results depend on the processing

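The TRBV3 share of clonotypes (log2) in combination against control moved past the threshold with TMM factors (-0.36), without clonotypes under 20 counts (-0.62), with the replicate block (-0.32) and without combination D11 replicate 3 (range over left-out libraries -0.36 to -0.27). Combination against BGB-283 passed without clonotypes under 20 counts (-0.43) and without satellites (-0.31). With counts in place of clonotypes the sign turned for trametinib against control (0.10) and for the combination against control (0.24), trametinib (0.13) and BGB-283 (0.50), and with estimated molecules likewise (0.073, 0.19, 0.12 and 0.46). None of these passed.

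CDR3 length of TRBV3 kept its direction in each alternative run but missed the threshold in some. With the replicate block, trametinib (-0.177), BGB-283 (-0.280) and combination (-0.259) against control and D11 against D4 (0.108) all had adjusted p = 0.122 in the exact permutation test. The control contrasts then have 32 arrangements and a smallest p of 0.0625, so they could not pass. The block changed no other call besides the one above. Without both shallowest libraries they were -0.179, -0.250, -0.299 and 0.111. Trametinib against control also missed without clonotypes under 20 counts (-0.248) and without satellites (-0.177), and D11 against D4 with weights by counts (0.193) or estimated molecules (0.181) and without satellites (0.0800). As TRBV3 minus the other segments, BGB-283 against control (-0.253) and D11 against D4 (0.0463) missed. Left-out libraries gave 0.103 to 0.134 for D11 against D4.

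The TRBJ2 share turned sign without satellites for BGB-283 against control (-0.861 points) and D11 against D4 (-0.821), and without both shallowest libraries for D11 against D4 (-1.65). With 1 library left out it ran from -0.107 to 6.50 (BGB-283 against control), -1.11 to 2.19 (D11 against D4), -0.163 to 5.40 (combination against BGB-283), 1.36 to 5.29 (combination against trametinib, 1 of 12 passing) -0.0432 to 6.12 (trametinib against control) and 3.00 to 9.17 (combination against control, with 1.74 without clonotypes under 20 counts).

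Within libraries, the TRBJ2 excess passed without satellites (3.28 points), without both shallowest libraries (3.66) and without control D4 replicate 1 (3.93) or BGB-283 D11 replicate 1 (3.61), in a range of 2.495 to 3.93. The length excess missed in D4 libraries alone (0.110). The sharing excess missed without clonotypes under 20 counts (2.00), in D4 (1.83) or D11 (2.10) libraries alone and without both shallowest libraries (1.73). Without clonotypes under 20 counts 2 J segments passed, and in D11 libraries alone 1. Signs turned for TRBJ2-4 (0.0449 without clonotypes under 20 counts, 0.142 in D11 libraries, 0.286 without satellites), TRBJ1-2 (-0.418 in D4 libraries), TRBJ1-4 (-0.167 in D11 libraries) and TRBJ1-5 (0.0413 without satellites). The TRBV3 share of counts in trametinib D4 was 9.13% with clonotypes of 1% or more left out, and thresholds of 0.5% and 2% gave 59 and 20 large clonotypes.

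Leaving out satellites or the shallowest libraries and TRBV3 minus the other segments were chosen after seeing the data. Depth limits the control libraries most, with 20 to 81 TRBV3 clonotypes each, and a count of 0 means only that fewer than 3 were listed. Why a call changed was not tested.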
